A study of Bos taurus with 56 samples.

Results

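The comparison is that of a high energy against a low energy feedlot diet in muscle of the loin, the Longissimus dorsi, of bulls of the Bonsmara, which the labels call a Sanga-related breed. It rests on the 18 Bonsmara libraries with columns in the deposited tables, out of 42 libraries of both breeds with columns and 56 samples labelled. Bulls were fed for 120 days on a diet of 12.0 MJ (high energy) or 10.9 MJ (low energy) of metabolizable energy per kg, and no other agent or allele is given for either group. Library titles join a stem and a suffix, and the 3 libraries that share a stem were added up to 1 unit. The high energy group held the stems B6, B25 and B199 and the low energy group B11, B51 and B126, so n was 3 a side. The labels do not say that a stem is an animal, and p-values then measure only the spread between these stems, which may be technical. A further 8 Bonsmara samples with labels were not analysed here.

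This muscle gives the loin and rib cuts and is made mostly of fast fibres, with fat cells, vessels, connective tissue and nerve between them. During finishing, energy eaten beyond maintenance and growth is laid down partly as fat, of which the fat within the muscle is seen as marbling. Muscle itself burns glucose and fatty acids and stores glycogen, and genes of these pathways are known to respond to feeding. Which genes of that kind moved cannot be said here, because the tables hold Ensembl bovine IDs only and the gene table given for cattle matched 0 of them. Genes are therefore given by ID, and the muscle could not be checked against its markers. In bulk muscle, fewer cells of a type and less RNA per cell cannot be told apart.

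Libraries held 9989464 to 78224599 counts and summed stems 34456677 to 101757197. High and low energy stems overlapped in depth, with 101757197, 61927320 and 41109828 counts in B6, B25 and B199 against 34456677, 36855985 and 42595480 in B11, B51 and B126. Of the 20791 genes listed, 3471 had no count in any of the 18 libraries. A total of 12567 genes passed the filter on low counts. The libraries of a stem differed by more than counting noise, which gives a chi-square with a mean of 1 and a median of 0.455 over genes. Over the 18 pairs the mean was 6.29 to 270 and the median 0.986 to 15.8, lowest for B199_1 with B199_2, so none was counted as a repeat of another.

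Libraries B6_2 and B11_2 went against their titles. Over all genes tested, 16 of the 18 libraries correlated best with a library of their own stem. Library B11_2, labelled low energy, correlated best with B6_1 at r = 0.987 and at most at 0.971 with its own stem. Library B6_2, labelled high energy, correlated best with B11_3 at 0.984 and at most at 0.976 with its own stem. Correlations here are Pearson's r of log2(CPM + 1), where CPM is a gene's count per 1000000 counts of the TMM-adjusted library total, across genes, which are not independent replicates.

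The same order was sharper in 150 genes that separated the other 4 stems best, which were chosen without any library of B6 or B11. In these genes B6_2 correlated with B11_1 and B11_3 at 0.991 and 0.990, and with B6_1 and B6_3 at 0.910 and 0.914. B11_2 correlated with B6_1 and B6_3 at 0.994 and 0.988, and with B11_1 and B11_3 at 0.906 and 0.907. The 6 libraries thus formed 2 sets of 3, each with 1 library titled as the other stem and the other diet. The gene ENSBTAG00000004526, of these 150 the one with the widest range over the 6 libraries and so chosen after its values were seen, had 184 CPM in B11_1 and 169 in B11_3. It had 202 CPM in B6_2. Its level was 0.375 CPM in B6_1, 0.338 in B6_3 and 0.0854, a single count, in B11_2. No source used here says whether the 2 titles were exchanged. The labels were followed, and results are given with and without these 2 libraries.

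**Figure D1:**
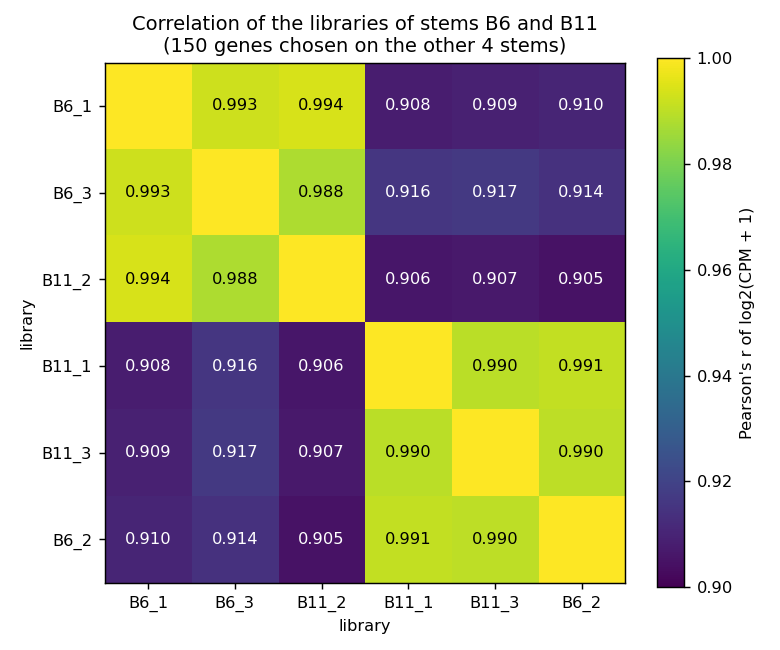
Pearson's r of log2(CPM + 1) between the 6 libraries of stems B6 and B11, over 150 genes chosen on the other 4 stems (both axes, libraries; colour, r from 0.90 to 1). B6_1, B6_3 and B11_2 form one block and B11_1, B11_3 and B6_2 another, with r of 0.988 or more within blocks and 0.917 or less between them.

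High against low energy asked which genes of the muscle differ with dietary energy in this breed. The edgeR quasi-likelihood test called 0 of 12567 genes (0%) at an adjusted p under 0.05, and the smallest adjusted p was 0.340. At an unadjusted p under 0.05 there were 1672 genes (13.3%), where 628 are 5% of those tested. Of these, 746 (5.94% of all tested) were higher and 926 (7.37%) lower on high energy. Without libraries B6_2 and B11_2 the test again called 0 genes, with a smallest adjusted p of 0.332. It then had 1693 genes (13.5%) at an unadjusted p under 0.05, of which 855 (6.80% of all tested) were higher and 838 (6.66%) lower. A total of 1379 genes were at an unadjusted p under 0.05 in both fits, all 1379 in the same direction. The fits share all other libraries, so this overlap follows largely from shared data and is not independent support.

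The split between higher and lower depended on the scaling. With library totals in place of TMM scaling, which allows for a few genes taking many counts, the median log2 fold change of all genes moved from 0.00 to -0.20, and 13.3% of the 1076 genes at an unadjusted p under 0.05 were higher, against 44.6% with TMM. Relative to that shift the order of genes was nearly the same, with a Spearman's rho of 0.996 across genes.

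DESeq2 on the same 6 stems called 87 of 17304 genes with a p-value (0.503%), 27 higher (0.156%) and 60 lower (0.347%) on high energy. Without the 2 libraries it called 110 of 17236 (0.638%), 40 higher (0.232%) and 70 lower (0.406%). DESeq2 adjusted over fewer genes than these, since it sets aside genes of low count first. These shares are therefore not on the same basis as those of edgeR. Of the 87, 71 differed by at least 2-fold and 80 had stems of the diets that did not overlap. All 87 were at an unadjusted p under 0.05 in edgeR, with a largest p of 0.018. Over all genes tested in edgeR, stems did not overlap for 9.06% higher and 9.14% lower, and 13.3% were at that unadjusted p. The 87 were chosen on these same stems, so their separation and edgeR p follow from the choice and lend the calls no support. Limma voom with quality weights had 3546 genes at an unadjusted p under 0.05 and called 0, with a smallest adjusted p of 0.0800. When the Nguni stems, grouped as labelled, shared the estimate of the spread, edgeR called 0 genes. It had 508 of 13219 genes at an unadjusted p under 0.05, or 3.84%, below the 5% that chance alone would give. The Nguni stems N1 and N11 stand in the tables with the diet other than that of their labels, so this fit depends on the labels.

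DESeq2 on the stems of both breeds called 2 of its genes (0.0112%), both chosen after their values were seen. The edgeR filter on the 6 stems dropped both, since they had counts in too few stems. ENSBTAG00000045987 had 193 counts in B25, spread over its 3 libraries at 61 to 67, and 0 in the other 5 stems. ENSBTAG00000047768 had 659 counts in B25 and 99 in B6, from 3 libraries in all, and 0 in the other 4 stems. So these 2 calls rested on 1 and 2 of the 3 high energy stems.

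**Figure D2:**
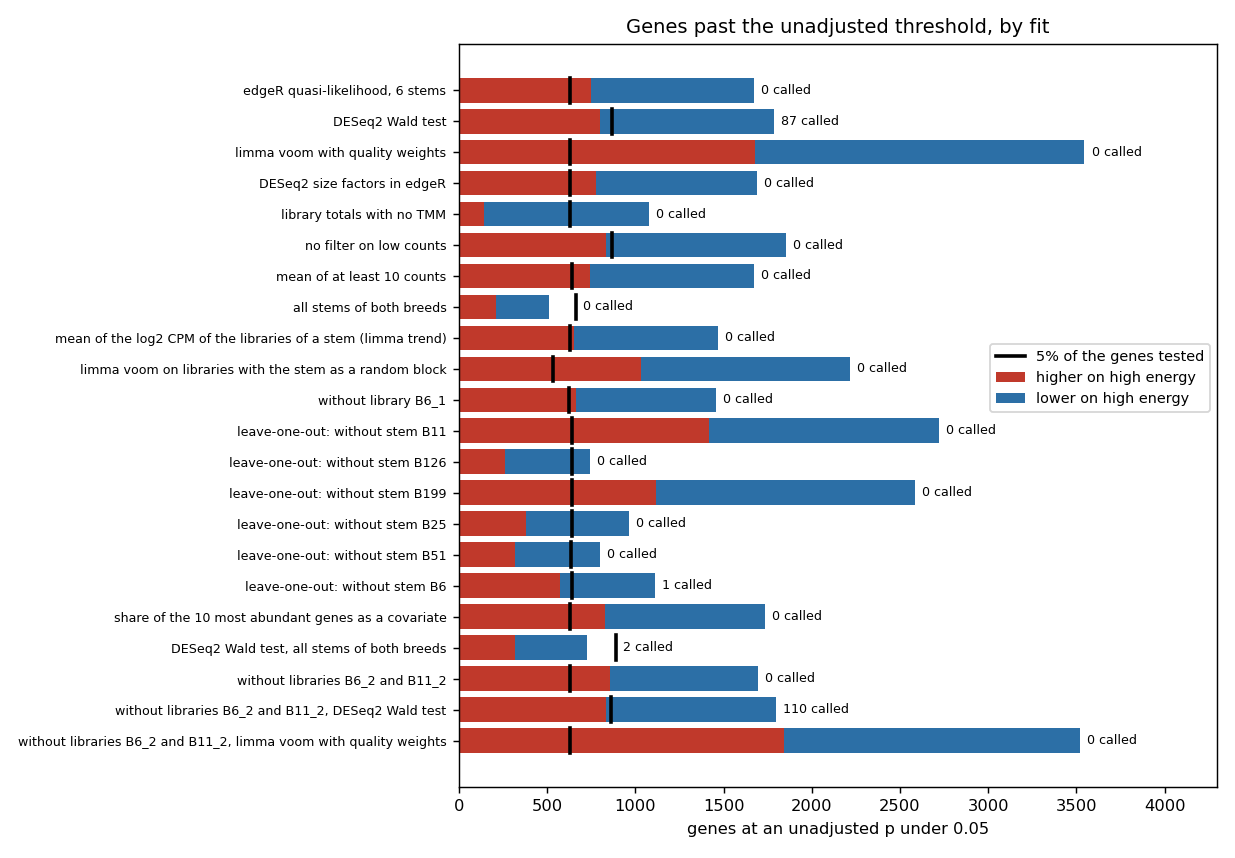
Number of genes at an unadjusted p under 0.05 (horizontal axis) in each fit (vertical axis), split into genes higher and lower on high energy, with 5% of the genes tested as a black mark and the number called at an adjusted p under 0.05 beside each bar. The edgeR fit on the 6 stems has 1672 genes and 0 called, and DESeq2 calls 87.

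The genes named here were the 2 of smallest p in each direction. None passed the adjustment in edgeR, and their values are given as such. ENSBTAG00000048135 had 3.59, 3.10 and 2.53 CPM in the high energy stems B6, B25 and B199 and 0.508, 1.10 and 0.572 in the low energy stems B11, B51 and B126. All 3 high energy stems lay above all 3 low energy stems, at 3.07 ± 0.53 against 0.727 ± 0.324 CPM (SD, n = 3 each). High minus low energy was 2.07 ± 0.35 on the log2 scale (SE, edgeR adjusted p = 0.340), and 2.22 without B6_2 and B11_2. Of the 313 counts in stem B6, 299 came from B6_1. Single libraries overlapped, since B6_2 at 0.537 and B6_3 at 1.18 CPM lay among the low energy libraries at 0.320 to 1.26.

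ENSBTAG00000018375 had 1.28, 1.53 and 1.45 CPM in B6, B25 and B199 and 0.476, 0.252 and 0.368 in B11, B51 and B126. The stems did not overlap, with means of 1.42 ± 0.13 and 0.365 ± 0.112 CPM (SD, n = 3 each) and a difference of 1.97 ± 0.34 on the log2 scale (SE, edgeR adjusted p = 0.340). The low energy values rested on few reads, 15, 11 and 18 counts in the 3 stems. Of the 112 counts in stem B6, 104 came from B6_1, so the level of B6 rested on that library. B6_2 at 0.307 CPM, the lowest high energy library, and B6_3 at 0.676 lay among the low energy libraries at 0 to 0.683. Without B6_2 and B11_2, each of the remaining 8 high energy libraries lay above each of the 8 low energy ones, and the log2 fold change was 2.22. The margin was narrow and rested on few reads, with B6_3 at 0.676 CPM from 4 counts and B11_3 at 0.657 CPM from 7 counts.

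ENSBTAG00000043564, an abundant transcript, was lower on high energy in every stem, with 503, 285 and 342 CPM in B6, B25 and B199 against 2316, 1509.6 and 1292 in B11, B51 and B126. Its means were 376 ± 113 and 1706 ± 539 CPM (SD, n = 3 each). On the log2 scale the difference was -2.18 ± 0.31 (SE, edgeR adjusted p = 0.340). The libraries of a stem disagreed widely for this gene. They ran from 370 to 3754 CPM in B11, from 398 to 1596 in B126 and from 415 to 1543 in B6. So the stems separated while the libraries, at 143 to 1543 CPM on high energy and 370 to 3754 on low energy, did not. Without B6_2 and B11_2 its log2 fold change was -2.05.

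ENSBTAG00000012090 had 1.40, 1.77 and 1.43 CPM in B6, B25 and B199 and 4.10, 4.49 and 4.15 in B11, B51 and B126. The stems did not overlap, at 1.53 ± 0.21 against 4.25 ± 0.21 CPM (SD, n = 3 each). Its log2 fold change was -1.47 (SE 0.23, edgeR adjusted p = 0.340). The 9 high energy libraries ran from 0.792 to 2.50 CPM and the 9 low energy ones from 2.14 to 5.54. The single low energy library within the high energy range was B11_2, at 2.14 CPM. Without B6_2 and B11_2 the libraries did not overlap, and the log2 fold change was -1.58.

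All 4 genes were among the DESeq2 calls, with DESeq2 adjusted p of 0.000299 for ENSBTAG00000048135, 0.00326 for ENSBTAG00000018375, 3.23e-08 for ENSBTAG00000043564 and 0.000299 for ENSBTAG00000012090. Over all alternatives the adjusted p ran from 0.000299 to 0.888 for ENSBTAG00000048135, 0.00124 to 0.888 for ENSBTAG00000018375, 3.23e-08 to 0.888 for ENSBTAG00000043564 and 0.000137 to 1 for ENSBTAG00000012090. Each gene was called in 2 alternatives, the DESeq2 fits with and without B6_2 and B11_2. Without library B6_1 the edgeR log2 fold changes were smaller in size than with all libraries. They were 1.57 for ENSBTAG00000048135, 1.70 for ENSBTAG00000018375, -1.84 for ENSBTAG00000043564 and -1.35 for ENSBTAG00000012090, each at an edgeR adjusted p of 0.403.

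The Nguni groups follow the labels, though the stems N1 and N11 stand in the tables with the diet other than that of their labels. The Nguni means, their order and the differences of effects depend on that choice. In Nguni, ENSBTAG00000012090 had 3.43 ± 2.33 CPM on high energy (SD, n = 5) and 2.50 ± 2.03 on low energy (n = 3). These means stood in the opposite order to Bonsmara, which rested on the highest high energy stem. The Nguni stems overlapped, at 1.93 to 7.48 CPM on high energy and 0.769 to 4.73 on low energy. The diet effects of ENSBTAG00000012090 differed between breeds by -1.91 on the log2 scale (edgeR interaction, adjusted p = 0.855). ENSBTAG00000018375 had 0.469 ± 0.312 and 0.396 ± 0.103 CPM in the same Nguni groups, with means in the same order as in Bonsmara. That order also rested on the highest high energy stem. The stems overlapped, at 0.164 to 0.899 CPM on high energy and 0.277 to 0.457 on low energy. Its difference of effects was 1.71 (edgeR interaction, adjusted p = 0.855). ENSBTAG00000048135 had 3.55 ± 2.40 and 2.06 ± 1.22 CPM, with means also in the same order. Its stems overlapped, at 0.964 to 7.41 CPM on high energy and 0.694 to 3.04 on low energy. Its difference of effects was 1.28 (edgeR interaction, adjusted p = 0.855). ENSBTAG00000043564 had 961 ± 331 and 1193 ± 1588 CPM, with means also in the same order. That order rested on the highest low energy stem, at 3025 CPM. The low energy stems began at 225 CPM, and the high energy stems ran from 450 to 1306. Its difference of effects was -1.86 (edgeR interaction, adjusted p = 0.855). None of these differences passed the adjustment, which does not show that the breeds responded alike.

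One more gene, ENSBTAG00000009702, was called by edgeR only when stem B6 was left out (log2 fold change -3.55, edgeR adjusted p = 0.0272), and was chosen after its values were seen. It had 3.04, 0.779 and 0.597 CPM in B6, B199 and B25 and 7.37, 9.02 and 7.87 in B11, B51 and B126. With all 6 stems its log2 fold change was -2.42 (SE 0.57, edgeR adjusted p = 0.340). DESeq2 called this gene on the 6 stems (DESeq2 adjusted p = 0.00207) and without B6_2 and B11_2 (DESeq2 adjusted p = 0.000124). All 3 low energy stems lay above all 3 high energy stems, and B6 lay between B199 and the low energy stems. Its libraries B6_2 at 4.61 and B11_2 at 2.99 CPM crossed, and without both of them the remaining libraries of the diets did not overlap.

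**Figure D3:**
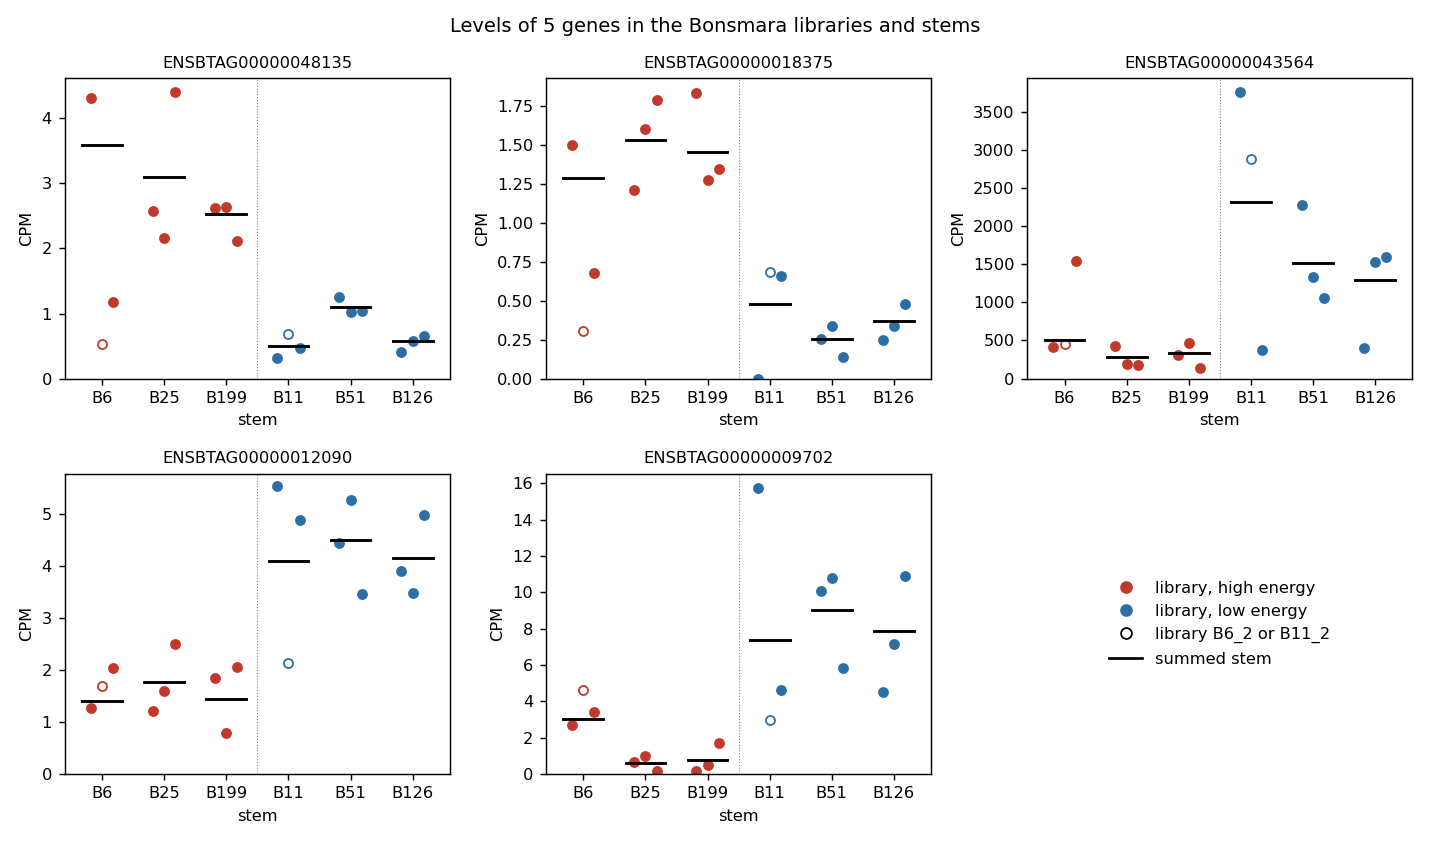
CPM (vertical axes, from 0) of 5 genes in each library (points, 3 per stem) and each summed stem (short horizontal lines), with high energy stems left and low energy stems right of the dotted line. Open points are B6_2 and B11_2, and in each panel the 3 summed high energy stems lie on one side of the 3 summed low energy stems.

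Genes whose stems did not overlap were nearly as many in one direction as in the other with TMM scaling, but not with library totals, which gave 538 above and 1030 below. With TMM, all 3 high energy stems lay above all 3 low energy stems for 1139 genes (9.06%) and below them for 1149 (9.14%). Without B6_2 and B11_2 these numbers were 1259 and 1115 of 12575 genes tested, or 18.9% in both directions together. Most such differences were small, since those that also reached 2-fold were 0.708% of all genes tested on the higher side and 1.66% on the lower side. Whether or not the stems overlapped, 573 genes differed by at least 2-fold, 365 of them lower. The median absolute log2 fold change was 0.295 and the median SE 0.268.

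Far fewer genes separated at the level of single libraries. All 9 high energy libraries lay above all 9 low energy libraries for 27 genes (0.215%) and below them for 21 (0.167%). Those 27 had log2 fold changes of 0.37 to 1.44 and a median level of 21.8 CPM, and the 21 had -3.01 to -0.35 and 13.2 CPM. Removing B6_2 and B11_2 raised the numbers to 109 and 78, or 187 in all. Removing any other pair of 1 library of B6 and 1 of B11, 8 pairs in all, gave 75 to 120. B6_2 and B11_2 were chosen because each lay with a stem of the other diet, so a rise on removing them follows from that choice and supports nothing further.

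Level and direction went together. Among the 650 genes over 100 CPM, 93 (14.3%) had all high energy stems above all low energy stems and 23 (3.54%) below. Among the 2247 genes under 1 CPM the order was the other way, with 121 (5.38%) above and 222 (9.88%) below. Between 1 and 10 CPM there were 398 above and 607 below, and between 10 and 100 CPM 527 above and 297 below. The median log2 fold change rose with level, from -0.07 under 1 CPM through -0.03 and 0.05 to 0.12 over 100 CPM. With library totals in place of TMM the median was negative at every level, -0.28 under 1 CPM and -0.10 over 100 CPM, and the order of levels was kept. The gap between the highest and the lowest level was 0.186, and it was 0.0975 without library B6_1 and 0.284 without stem B199.

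**Figure D4:**
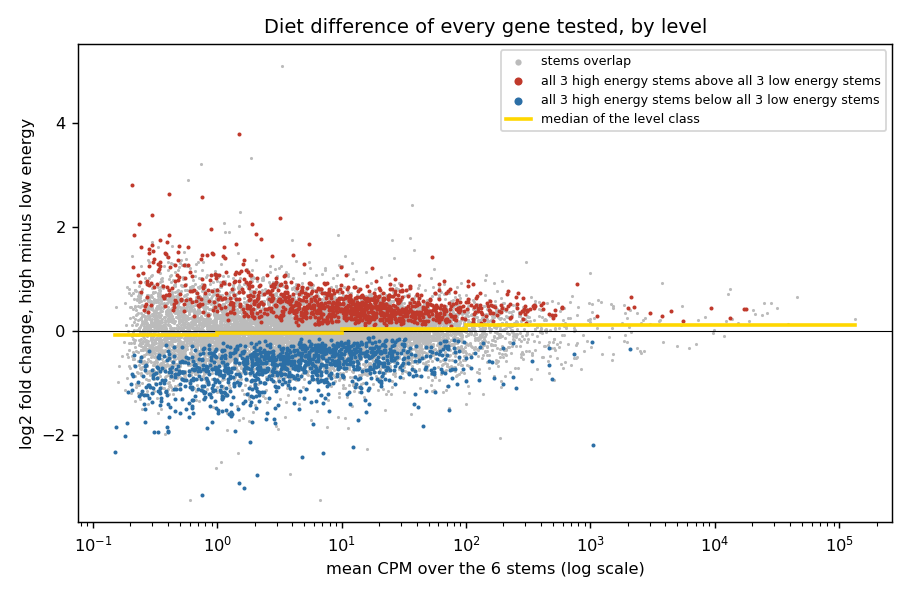
Log2 fold change, high minus low energy (vertical axis), against mean CPM over the 6 stems (horizontal log axis) for the 12567 genes tested, with colours for genes whose stems do not overlap. The median of each level class (yellow) goes from -0.07 under 1 CPM to 0.12 over 100 CPM.

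The share of counts in the 10 most abundant genes differed between stems by more than between diets. It was 43.3% in B6, 43.8% in B25 and 33.1% in B199 on high energy, and 45.3% in B11, 31.9% in B51 and 31.2% in B126 on low energy. Diet means were 40.1 ± 6.0 and 36.1 ± 8.0% (SD, n = 3 each, exact permutation test, two-sided p = 0.7, where 0.1 is the smallest that 20 arrangements allow). The stems fell into 3 at 43.3 to 45.3% and 3 at 31.2 to 33.1%, and each set held both diets. Single libraries did not fall into these sets. They ran from 24.84 to 42.15% in B126 and from 37.3 to 61.04% in B6, and were closest in B51, at 30.21 to 33.66%. The value of a stem weights its libraries by their counts. With this share as a covariate, edgeR had 1734 genes at an unadjusted p under 0.05 and called 0, and the gap between the highest and lowest level was 0.144. The share was measured after the diets were given, and its part in the differences was not tested further.

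Stems of one diet were not more alike than stems of different diets in every case. The root mean square log2 difference over genes was 0.426 to 0.501 among the 3 high energy stems, 0.326 to 0.489 among the 3 low energy stems and 0.361 to 0.606 in the 9 pairs across diets. The closest pair across diets was B6 and B11, at 0.361. Without B6_2 and B11_2 that pair stood at 0.523, the median of the pairs across diets. The closest pair of all was B51 and B126, both on low energy, at 0.326.

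Diet accounted for 30.5% of the variance between stems, against a range of 11.7 to 41.5% over the ways to put 3 stems against 3 (exact permutation test, 20 arrangements, p = 0.2). Without the 2 libraries diet accounted for 30.3% (exact permutation test, p = 0.2). The smallest p this design allows is 0.1. On the first principal component, with 46.9% of that variance, the order was B6 at -29.5, B25 at -25.5, B11 at -10.2, B199 at 6.09, B126 at 26.6 and B51 at 32.5. So B11, labelled low energy, lay between B25 and B199, both labelled high energy, and the diets overlapped on that component. Without B6_2 and B11_2 the first component held 43.2% of the variance. B6 was then at 33.9, B25 at 23.8, B11 at 8.31, B199 at -6.895, B126 at -26.7 and B51 at -32.4. The order was the same with the signs turned round, and the diets again overlapped. On the second component B11 was then at 32.5 and B6 at -15.35.

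**Figure D5:**
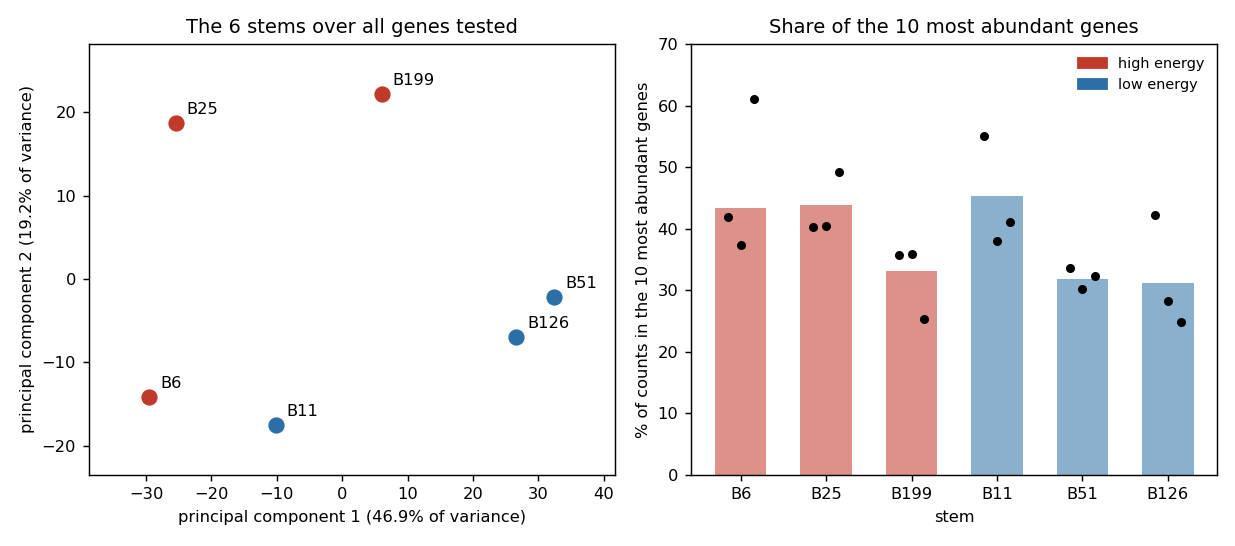
Left, the 6 stems with all libraries on principal components 1 and 2 of log2(CPM + 1), where B11 lies nearer to B6 than to B51 and B126. Without B6_2 and B11_2, which is not drawn, B11 was not nearer to B6 than to B51 and B126. Right, the percent of counts in the 10 most abundant genes per stem (bars, from 0) and per library (points), at 43.3 to 45.3% in B6, B25 and B11 and 31.2 to 33.1% in B199, B51 and B126.

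The number of genes detected was compared as deposited and at equal depth. High energy stems had 15871, 15717 and 15615 genes with at least 1 count in B6, B25 and B199, and low energy stems had 15299, 15487 and 15546 in B11, B51 and B126. Each high energy stem thus lay above each low energy stem (exact permutation test, two-sided p = 0.1, the smallest possible). With every stem thinned to 34456677 counts the numbers were 15005, 15207 and 15484 on high energy and 15299, 15436 and 15371 on low energy (exact permutation test, p = 0.5). The groups then overlapped. Genes seen in all 3 stems of one diet and in none of the other numbered 55 for high and 15 for low energy as deposited, and 24 and 28 after thinning. None of these had 10 or more counts in each of its 3 stems.

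The libraries of a stem spread widely relative to the stems. The median SD of log2(CPM + 1) was 0.224 between single libraries of a stem, with 0.240 in B6 and B11 and 0.197 in the other 4 stems. Between stems of a diet it was 0.223, but for means over the 3 libraries of a stem, which still hold part of the library spread. With that part taken out, the median share of variance between stems was 0.4 over all genes tested. The share of variance between stems rose with level, from a median of 0.18 under 1 CPM to 0.584 over 100 CPM. The median SE of the diet difference fell from 0.443 under 1 CPM to 0.209 between 10 and 100 CPM on the log2 scale. Over 100 CPM it was 0.22.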

How the data were processed

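RNA of the Longissimus dorsi was frozen, extracted with TRIzol and made into libraries with the Illumina TruSeq RNA kit, per the labels' protocols. The authors deposited estimated counts per gene, taken as estimated because the submitters' processing notes name Salmon, with Trimmomatic, FastQC and DESeq2. No source used here gives versions, genome build, annotation or strand. All 18 Bonsmara columns stood in 2 tables with identical values. The counts were rounded to whole numbers.

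Libraries of a stem were summed. Genes passing edgeR's filterByExpr (minimum count 10), which held 99.97% of counts, were scaled by TMM and tested with edgeR 4.0.16 in R 4.3.3 (robust quasi-likelihood, two-sided, Benjamini-Hochberg adjustment, 4 residual degrees of freedom, common biological coefficient of variation 0.2819). Fits on both breeds used 14 stems with groups as labelled. The Nguni stems N1 and N11 stand in the tables with the diet other than that of their labels. Alternatives used DESeq2 1.42.0 and limma 3.58.1. The edgeR, DESeq2 and voom fits on 6 stems were run on a single simulated data set drawn from the edgeR fit. There each called more unchanged genes than its threshold allows, DESeq2 the most. A single draw without separate libraries does not give the error rates of these fits in the real data.

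The comparison, gene lists and tests were chosen with earlier results of these data known. The 35 gene lists could not be applied, since the table of 37063 RefSeq genes matched 0 IDs. The genes given are the 2 of smallest p in each direction and those that an alternative calling 5 or fewer genes called.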

Additional observations from a re-analysis of the deposited data

Results flagged for a closer look

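Among the 9 high energy libraries, B6_1 stood apart in depth, with 78224599 counts against 24271882 in the next. It supplied 76.9% of the counts of its stem. Among the 9 low energy libraries, B126_2 had 18088539 counts, with 14172031 in the next. For ENSBTAG00000043564 library B6_3 had 1543 CPM, against 469 in the next of the 9 high energy libraries. For ENSBTAG00000047768 library B25_3 had 33.5 CPM, against 16.7 in the next and 0 in the lowest. Each was far from the other libraries of its diet by Dixon's criterion, which chance meets in about 1 group in 20. Libraries of one stem are not independent, so the criterion is a description here.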

How the results depend on the processing

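No paired analysis was possible because the stems carry no numbers shared between diets. In edgeR and limma 0 genes were called with 6 stems in each alternative run. DESeq2 called 87 with 6 stems, 110 without B6_2 and B11_2, and 2 with both breeds. Of edgeR's 1672 genes at an unadjusted p under 0.05, 746 were higher and 926 lower, and these numbers were 3546 (1677 and 1869) in limma voom with quality weights, 3519 (1843 and 1676) in the same fit without B6_2 and B11_2, 1076 (143 higher) with library totals, 508 (210 and 298) with both breeds and 724 (318 and 406) with both breeds in DESeq2. With library totals 538 genes had high energy stems above all low energy stems and 1030 below, against 1139 and 1149. Leaving out 1 stem in turn gave 0 to 1 genes called and 742 (without B126) to 2719 (without B11) at an unadjusted p under 0.05, with 263 to 1419 higher and 479 to 1469 lower. It was 2585 without B199, 1111 without B6, 964 without B25 and 800 without B51. The causes were not tested. The 4 named genes kept their direction in every alternative that tested them. The fit on libraries with the stem as a random block did not test ENSBTAG00000018375. The median SE was 0.443 under 1 CPM, 0.209 between 10 and 100 CPM and 0.22 over 100 CPM.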
